A study of Rattus norvegicus with 16 samples.

Results

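miR-320, miR-484, miR-877 and miR-1224 are microRNAs (miRNAs, small guides that silence messenger RNAs) whose hairpin precursors are known to be made without Drosha. All rows of the deposited tables with these names were taken, whatever their arm suffix. This gave 5 miRNAs of the 722 listed: rno-miR-320-3p, rno-miR-320-5p, rno-miR-484, rno-miR-877 and rno-miR-1224, written below without the prefix for rat. All 5 passed the filter on low counts, which left 639 miRNAs. The rows were chosen by name, but miR-320-5p, miR-484 and miR-1224 had been singled out with earlier results of these data in view. They are the 3 whose high and low responder amygdala libraries do not overlap, so the amygdala levels are treated here as the values they were selected on. The line difference in amygdala is therefore a description with no test.

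The samples were brain tissue of rats 60 days old, from lines bred for a high or a low locomotor response to a new environment. The 4 groups were high responder (HR) amygdala, low responder (LR) amygdala, HR dorsal raphe and LR dorsal raphe, with 4 libraries each and 16 in all. The amygdala, in the temporal forebrain, processes threat and emotion, and the dorsal raphe, in the brainstem, holds many of the brain's serotonin neurons. No treatment is labelled. Nothing in the labels ties replicates to different animals, and the p-values below cover only the spread among these libraries, which may be technical. In such tissue pieces, fewer cells of a type and less RNA per cell cannot be told apart.

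Most miRNAs are cut out of long transcripts by the nuclear enzyme Drosha with its partner Dgcr8, and the hairpin is then cut by Dicer. Mirtrons skip the Drosha step: the hairpin is a whole short intron, freed by splicing and debranching. miR-877, in the gene of the ribosome-associated ATPase Abcf1, and miR-1224, in the gene Vwa5b2, are mirtrons. The precursors of miR-320 and miR-484 are, in mouse, transcribed directly as short capped hairpins, and the cap favours the use of the 3p arm. In RefSeq's rat annotation the miR-320 gene lies next to Polr3d, which encodes an RNA polymerase III subunit. The miR-484 gene lies between Nde1, for a neural progenitor and centrosome protein, and Marf1, and the miR-877 and miR-1224 genes lie inside Abcf1 and Vwa5b2.

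RefSeq sequences (build GRCr8) matched 3 of the 5 names. The mature sequences are shown because their seeds, bases 2 to 8 and here in capitals, set which messenger RNAs a miRNA can pair with. The genes lie at chr10:1394905-1394981 on the minus strand (miR-484), chr20:2816284-2816368 on the plus strand (miR-877) and chr11:93811291-93811375 on the minus strand (miR-1224).
miR-484: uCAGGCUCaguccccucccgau
miR-877: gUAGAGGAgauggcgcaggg
miR-1224: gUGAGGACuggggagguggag
miR-344a-5p: uCAGGCUCcuggcuagauu
No seed was shared among the 3. The seed of miR-484 was shared with miR-344a-5p, which the tables list, and with miR-344-5p. Guanine and cytosine made up 63.6% of miR-484, 65.0% of miR-877 and 66.7% of miR-1224, against a median of 47.6% over the 644 listed names that matched a RefSeq mature sequence. miR-344a-5p averaged 1.83 ± 0.876 CPM over the 16 libraries (SD; CPM, counts per 1000000 after scaling).

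The hairpins show the difference between the routes. An intron begins with GU and ends with AG, and these end bases are in capitals.
miR-877 hairpin: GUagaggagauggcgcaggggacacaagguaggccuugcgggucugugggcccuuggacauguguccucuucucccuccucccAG
miR-1224 hairpin: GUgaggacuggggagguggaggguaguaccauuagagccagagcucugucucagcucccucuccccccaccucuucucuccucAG
miR-484 hairpin: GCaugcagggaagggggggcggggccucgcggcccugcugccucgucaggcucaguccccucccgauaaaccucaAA
Both mirtron hairpins begin with GU and end with AG, read on their own strand, as do 4 (0.955%) of the 419 rat hairpins in the table. The miR-484 hairpin does neither. The mature miR-877 is bases 1 to 20 and the mature miR-1224 bases 1 to 21 of a hairpin of 85 bases, so both start at the first base of the hairpin. The mature miR-484 is bases 46 to 67 of 77, on the 3p side.

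The libraries held 1741167 to 8134915 counts, so that 3 counts stood for 0.369 to 1.72 CPM, a floor that covers counting error only. Levels were scaled by the trimmed mean of M values (TMM), with a factor of 0.596 in LR dorsal raphe replicate 4 and 0.870 to 1.27 in the others. That library and HR amygdala replicate 1 lay farthest from their groups (root mean square deviation 1.03 and 0.968 on the log2 scale, against 0.285 to 0.880), and values without both are given below. Marker miRNAs of tissue and cell types were above 0 counts in every library. The summed level of the 4 neuronal miRNAs, all found, ran from 62720 to 132480 CPM in amygdala, against 26193 to 57658 CPM in dorsal raphe. In the averaged region test below, miR-128-3p, their most abundant member, was higher in amygdala and passed (log2 fold change 2.23). miR-124-3p (-0.47), miR-129-5p (0.39) and miR-138-5p (0.37) did not pass. The 4 muscle miRNAs summed to 216 to 402 CPM in amygdala and 1344 to 5085 CPM in raphe, and the hindbrain miRNAs miR-10a-5p and miR-10b-5p to 24.7 to 146 CPM in amygdala and 360.3 to 3925 CPM in raphe. Of 6 names listed for oligodendrocyte miRNAs, the 4 found summed to 4954 to 13589 CPM in amygdala and 10264 to 40514 CPM in raphe. The highest raphe value of each of these sums stood in LR dorsal raphe replicate 4. The hindbrain sum was 3925 CPM there, against 360.3 to 467 CPM in HR dorsal raphe. In the same library miR-1224 (223 CPM), miR-320-5p (44.9 CPM), miR-320-3p (761 CPM) and miR-877 (39.2 CPM) had their highest raphe levels, while miR-484 did not. With library totals as the scaling only miR-320-5p (26.7 CPM) was still highest there. By that scaling miR-1224 stood at 133 CPM there and at 179 CPM in LR dorsal raphe replicate 1. The 6 miRNAs of choroid plexus and ciliated cells summed to 12151 to 28655 CPM in HR amygdala against 3966 to 6879 CPM in HR dorsal raphe, without overlap. In low responders they summed to 1325 to 20469 CPM in amygdala against 3736 to 8127 CPM in dorsal raphe. In the averaged region test miR-204-5p (1.79), miR-204-3p (1.02), miR-211-5p (1.68) and miR-449a-5p (1.33) passed as higher in amygdala. miR-34b-5p (1.21) and miR-34c-5p (0.98) did not pass. The part of these marker lists in the region differences below was not tested.

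The mirtron miR-1224 was lower in amygdala than in dorsal raphe, and it is the member that passed the test of the regions averaged over the lines. miR-320-5p, the minor arm of the miR-320 hairpin, was higher in amygdala than in raphe in high responders. Its highest levels there, at 36.2 and 45.8 CPM, stood in the HR amygdala libraries of fewest counts. For both miRNAs the comparison shares amygdala libraries with the contrast on which they were singled out, and is not independent of it. miR-320-3p, miR-484 and miR-877 passed in none of the region comparisons. miR-484 differed more between libraries than any other member, by 11.0-fold from the lowest to the highest, with the highest levels in individual low responder libraries.

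**Figure D1:**
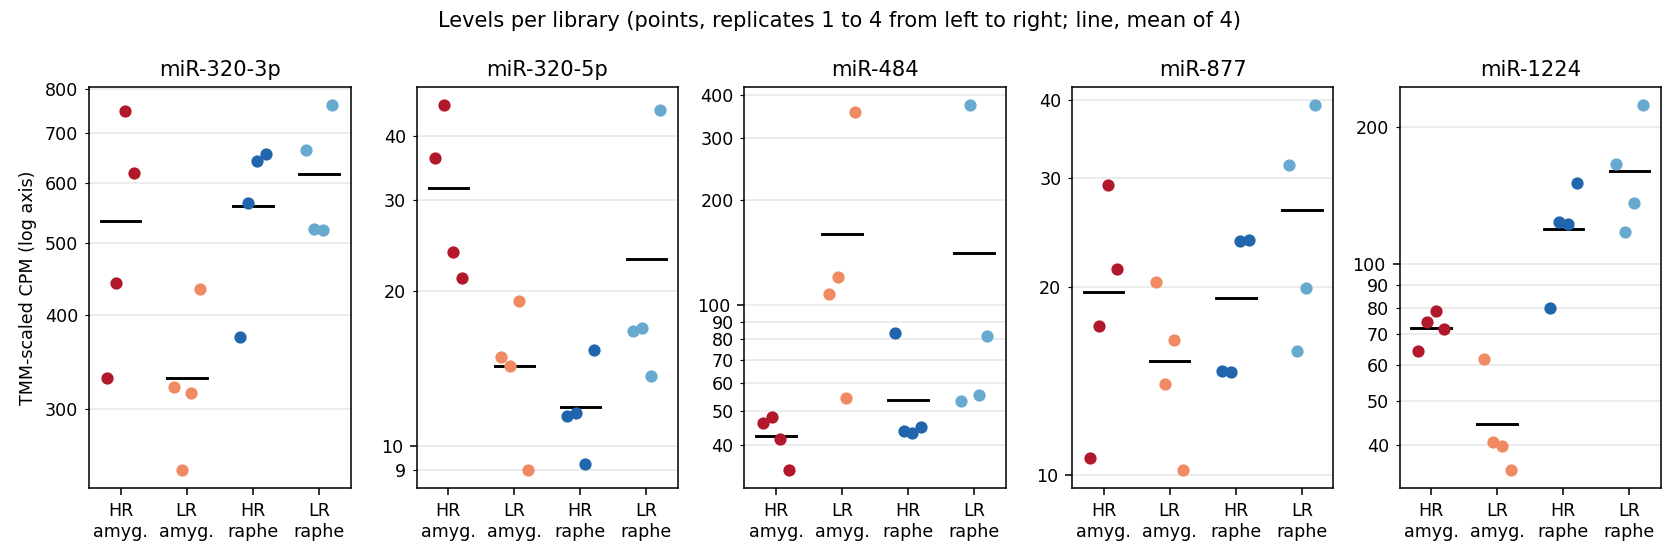
TMM-scaled CPM (log axis, with its own range in each panel) of the 5 miRNAs in each of the 16 libraries, by group, with HR groups left of LR groups; points are replicates 1 to 4 from left to right and lines are means of 4. miR-1224 is at 35.1 to 78.7 CPM in amygdala, under all 8 raphe libraries, and miR-484 reaches 358 CPM in LR amygdala replicate 4 and 373 CPM in LR dorsal raphe replicate 2.

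miR-1224 stood at 64.4, 74.7, 78.7 and 71.8 CPM in HR amygdala (replicates 1 to 4), and at 61.7, 40.6, 39.7 and 35.1 CPM in LR amygdala. It stood at 80.0, 124, 123 and 151 CPM in HR dorsal raphe and at 166, 117, 136 and 223 CPM in LR dorsal raphe. The highest amygdala library lay just under the lowest raphe library, HR dorsal raphe replicate 1, and the regions did not overlap. These levels rest on 121 to 1062 counts a library.

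Over the regions miR-1224 averaged 58.3 ± 17.4 CPM in amygdala and 140 ± 42.2 CPM in dorsal raphe (SD, n = 8 libraries each). It was 2.44-fold lower in amygdala (-1.29 as a log2 fold change, SE 0.20). In edgeR's quasi-likelihood test, adjusted over all miRNAs tested, the adjusted p was 0.000125. It was the single member called. Of all miRNAs tested 24.3% were called in this comparison, 14.9% as lower, so 1 call in 5 is close to the background. Groups without overlap were seen for 6.57% of all miRNAs tested, and 1 of the 5 members was among them. By size, 35 of the 639 log2 fold changes, that of miR-1224 included, were at or under its value, and the median of all was -0.08. Without LR dorsal raphe replicate 4 and HR amygdala replicate 1 the value was -0.97 (adjusted p = 0.000269), while the median over all miRNAs moved up by 0.30. Relative to that median it was -1.20 without these libraries and -1.21 with all 16. The region comparisons of miR-1224 share the amygdala libraries with the contrast for which it was singled out, and are not independent of it.

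In low responders miR-1224 was 3.62-fold lower in amygdala (44.3 ± 11.8 CPM) than in dorsal raphe (161 ± 46.4 CPM; SD, n = 4 each), or -1.86 on the log2 scale (SE 0.29, adjusted p = 0.000310 in edgeR). In this comparison 14.1% of all miRNAs were called, 10.5% as lower, against 1 of the 5 members. Libraries without overlap were seen for 19.2% of all miRNAs, and for miR-1224 and miR-320-3p among the members. In high responders it averaged 72.4 ± 6.02 CPM in amygdala and 119 ± 29.2 CPM in raphe, a difference of -0.72 on the log2 scale (SE 0.28) that did not pass (adjusted p = 0.103 in edgeR). It passed with DESeq2 (-0.68, adjusted p = 0.0490) and with library totals as the scaling (-0.87, adjusted p = 0.0322). Relative to the median of all miRNAs it was -0.80 in the first fit and with DESeq2, and -0.77 with library totals. Both lines thus had miR-1224 at lower levels in amygdala, and the 4 libraries of either region did not overlap in either line. That the call stands in low responders alone does not show that the lines differ. The interaction, which holds the amygdala contrast described below, was 1.14 (SE 0.40) for miR-1224. It did not pass (adjusted p = 0.240 in edgeR), and 0 of 639 miRNAs were called in it.

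**Figure D2:**
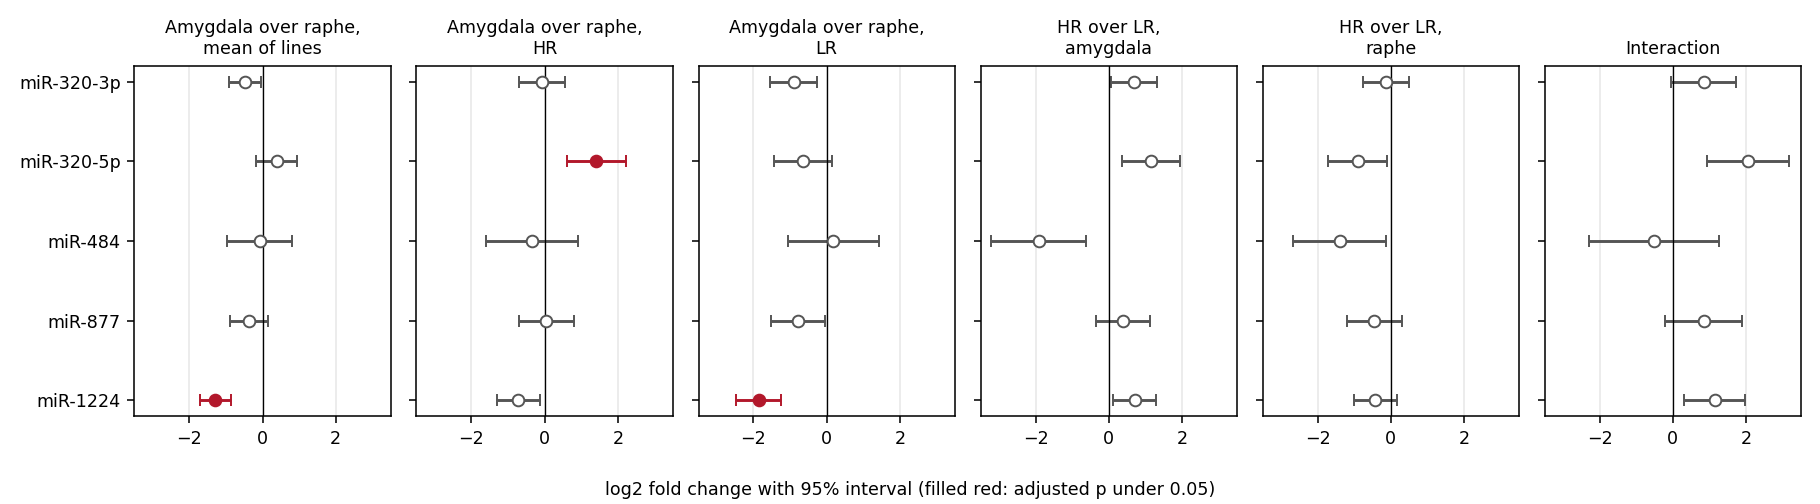
Log2 fold changes with 95% intervals (edgeR) of the 5 miRNAs in the 6 comparisons, with filled red points where the adjusted p was under 0.05. The line difference in amygdala, on which members were singled out, is drawn as a description only, and the interaction holds that contrast. Called values are miR-1224 at -1.29 averaged over the lines and -1.86 in low responders, and miR-320-5p at 1.41 in high responders.

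miR-877, the other mirtron, stood at 10.6, 17.4, 29.3 and 21.4 CPM in HR amygdala and at 20.4, 14.0, 16.5 and 10.2 CPM in LR amygdala. It stood at 14.7, 14.6, 23.7 and 23.9 CPM in HR dorsal raphe and at 31.5, 15.8, 20.0 and 39.2 CPM in LR dorsal raphe. The 4 groups overlapped, with 20 to 202 counts a library behind these levels. Its region difference was -0.37 (95% interval -0.89 to 0.15, adjusted p = 0.279 in edgeR), so a fall of the size seen for miR-1224 lies outside the interval. In low responders the difference was -0.79 (SE 0.35, adjusted p = 0.156) and in high responders 0.05 (SE 0.35, adjusted p = 0.938). Without the 2 libraries that lay apart the averaged difference was 0.02. Relative to the median over all miRNAs, which that fit moves up by 0.30, it was -0.20 without them and -0.29 with all 16.

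Ratios within a library do not depend on the scaling. There were 6.05, 4.30, 2.69 and 3.35 counts of miR-1224 for each count of miR-877 in HR amygdala, and 3.02, 2.91, 2.41 and 3.45 in LR amygdala. In HR dorsal raphe the ratio was 5.44, 8.44, 5.17 and 6.31, and in LR dorsal raphe 5.26, 7.41, 6.81 and 5.69. The regions did not overlap in low responders, and in high responders amygdala replicate 1, at 6.05, reached into the raphe range. Against miR-320-3p, miR-1224 had 19.5%, 16.9%, 10.5% and 11.6% of its counts in HR amygdala and 19.2%, 16.3%, 12.6% and 8.10% in LR amygdala. It had 21.4%, 21.9%, 19.1% and 23.0% in HR dorsal raphe and 24.9%, 22.5%, 26.1% and 29.4% in LR dorsal raphe. All but 1 of the raphe libraries, HR dorsal raphe replicate 3, lay above all amygdala libraries.

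**Figure D3:**
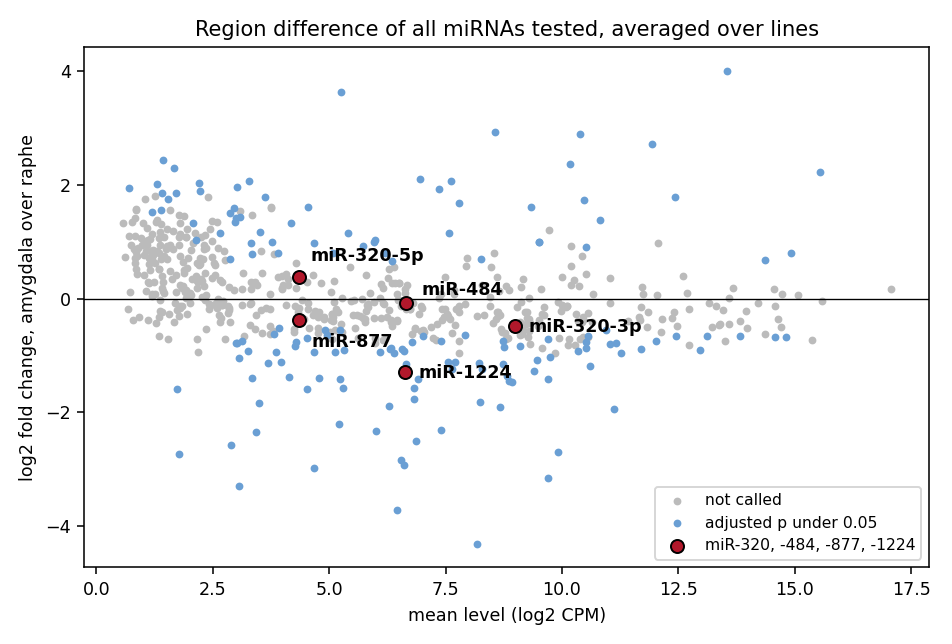
Averaged region difference (log2, amygdala over dorsal raphe) against mean level (log2 CPM) for the 639 miRNAs tested. Blue points had an adjusted p under 0.05. Of the 5 miRNAs marked in red, miR-1224 (-1.29) was called, and the other 4 lie between -0.48 and 0.38.

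miR-320-3p, the arm that the capped precursor is known to yield, stood at 330.0, 442, 749 and 618 CPM in HR amygdala and at 321, 249, 315 and 434 CPM in LR amygdala. It stood at 374, 564, 642 and 656 CPM in HR dorsal raphe and at 665, 521, 520.3 and 761 CPM in LR dorsal raphe. The 4 LR amygdala libraries lay below all LR raphe libraries, while the HR regions overlapped. The averaged region difference was -0.48 (SE 0.21, adjusted p = 0.1004 in edgeR), and it passed with library totals as the scaling (-0.49, adjusted p = 0.0465). In low responders the difference was -0.90 (SE 0.30, adjusted p = 0.0525 in edgeR, 0.0328 at -0.77 in DESeq2). In high responders it was -0.06 (95% interval -0.69 to 0.56). The low responder value was -0.60 (adjusted p = 0.297) without LR amygdala replicate 2. The averaged value was -0.15 (adjusted p = 0.486) without the 2 libraries that lay apart and -0.26 (adjusted p = 0.318) without HR amygdala replicate 1 alone. These fits moved the median of all miRNAs up by 0.30 and 0.17, and relative to that median miR-320-3p was at -0.38 and -0.35, against -0.40 with all 16 libraries. By mean level the order was LR dorsal raphe, HR dorsal raphe, HR amygdala and LR amygdala, and the first 3, at 617 ± 118, 559 ± 129.6 and 535 ± 186 CPM (SD, n = 4 each), differed by less than their spread.

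miR-320-5p, the opposite arm, stood at 36.2, 45.8, 23.8 and 21.2 CPM in HR amygdala and at 14.9, 14.3, 19.1 and 8.98 CPM in LR amygdala. It stood at 11.4, 11.6, 9.23 and 15.4 CPM in HR dorsal raphe and at 16.7, 17.0, 13.7 and 44.9 CPM in LR dorsal raphe. The HR amygdala libraries all lay above the HR raphe libraries, and LR dorsal raphe replicate 4 lay far above the rest of its group. These levels rest on 35 to 144 counts a library.

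In high responders miR-320-5p was 2.66-fold higher in amygdala, at 31.8 ± 11.4 CPM, than in dorsal raphe, at 11.9 ± 2.56 CPM (SD, n = 4 each). The log2 fold change was 1.41 with an SE of 0.38, and edgeR gave an adjusted p of 0.0177. Of all miRNAs 13.1% were called in this comparison, 6.57% as higher, against 1 of the 5 members. Groups without overlap were seen for 23.5% of all miRNAs, and miR-320-5p and miR-1224 were among them. The call held without each of the 8 libraries in turn (1.24 to 1.64, highest adjusted p = 0.0462) and without the 2 libraries that lay apart (1.49). This comparison shares the HR amygdala libraries with the contrast for which miR-320-5p was singled out, and is not independent of it. In low responders the difference was -0.64 (SE 0.38, adjusted p = 0.277) and -0.04 without LR dorsal raphe replicate 4. Averaged over the lines it was 0.38 (SE 0.27, adjusted p = 0.289), and 0.65 with an adjusted p of 0.0195 without that replicate. Relative to the median of all miRNAs the averaged values were 0.47 with all 16 libraries and 0.57 without that replicate.

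The 5p arm made up 9.88%, 9.39%, 3.08% and 3.31% of the miR-320 counts in HR amygdala and 4.43%, 5.44%, 5.71% and 2.03% in LR amygdala. In HR dorsal raphe it made up 2.96%, 2.01%, 1.42% and 2.29%, and in LR dorsal raphe 2.45%, 3.15%, 2.57% and 5.57%. The 3p arm was the major arm in all 16 libraries. The HR regions did not overlap in this share and the LR regions did. The highest share had a 95% exact binomial interval of 7.76% to 12.4%, which covers counting error only. The 3 highest levels of miR-320-5p stood in 3 of the 4 libraries of fewest counts, HR amygdala replicates 1 and 2 and LR dorsal raphe replicate 4 (1741167, 2561377 and 2096188 counts). The remaining library of that size, HR dorsal raphe replicate 1 with 2419326 counts, had 2.96%. The part of depth in the difference was not tested.

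**Figure D4:**
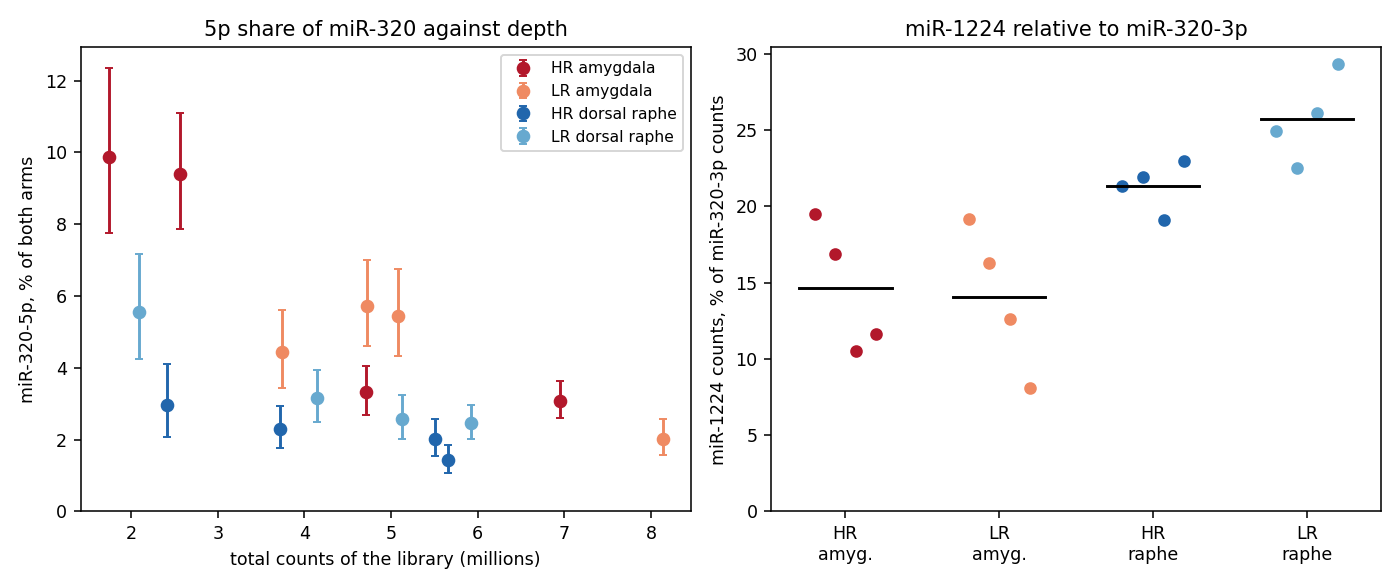
Left, miR-320-5p as a percentage of both miR-320 arms against the total counts of each library (in units of 1000000), with 95% exact binomial intervals; right, miR-1224 counts as a percentage of miR-320-3p counts by group, with lines for the mean of 4. The 5p share is highest, at 9.88% and 9.39%, in the 2 HR amygdala libraries of fewest counts, and the ratio of miR-1224 averages 14.6% in HR and 14.0% in LR amygdala against 21.3% in HR and 25.7% in LR dorsal raphe.

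miR-484, from the other capped precursor, stood at 46.3, 48.0, 41.7 and 33.9 CPM in HR amygdala and at 108, 120.4, 54.5 and 358 CPM in LR amygdala. It stood at 83.2, 43.9, 43.2 and 44.9 CPM in HR dorsal raphe and at 53.2, 373, 55.6 and 81.7 CPM in LR dorsal raphe. Every HR amygdala library lay under every LR amygdala library, and LR amygdala replicate 4 and LR dorsal raphe replicate 2 lay far above all others. These 2 libraries held 2710 and 1648 counts of miR-484, and counting error is small beside the gap. Their miR-484 counts were 82.5% and 71.5% of those of miR-320-3p, against 5.48% to 48.3% in the other 14 libraries.

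The region difference of miR-484 was -0.08 averaged over the lines (95% interval -0.96 to 0.81, adjusted p = 0.887 in edgeR), with 101 ± 109 CPM in amygdala and 97.3 ± 112 CPM in raphe (SD, n = 8 each). It was -0.34 (SE 0.60) in high responders and 0.18 (SE 0.59) in low responders. The last value was 1.45 without LR dorsal raphe replicate 2 and -0.47 without LR amygdala replicate 4, neither past the threshold. Between the lines in dorsal raphe it was -1.39 (SE 0.61, adjusted p = 0.387 in edgeR), with 53.8 ± 19.6 CPM in HR and 141 ± 155 CPM in LR (SD, n = 4 each). Without LR dorsal raphe replicate 2 this value was -0.19, so 1 library decides it.

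**Figure D5:**
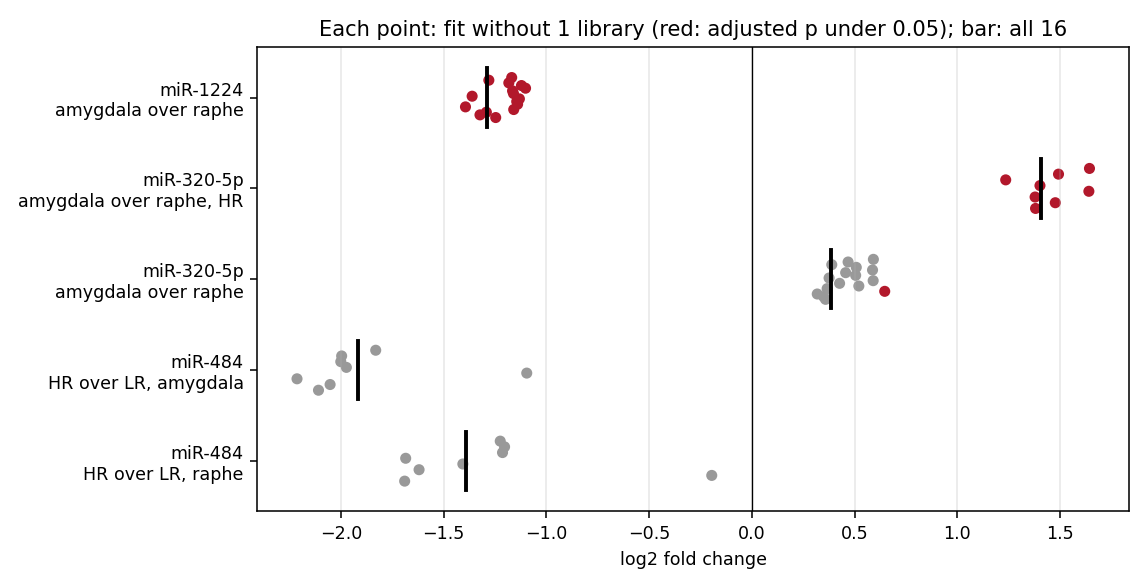
Log2 fold changes of 5 member comparisons in fits without 1 library (points, red where the adjusted p was under 0.05) and with all 16 (bar). The line difference of miR-484 in amygdala, on which it was singled out, is drawn as a description only. miR-1224 stays between -1.39 and -1.10, while the line differences of miR-484 reach -1.10 in amygdala without LR amygdala replicate 4 and -0.19 in raphe without LR dorsal raphe replicate 2.

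Between the lines in amygdala, the contrast in which 3 members had been singled out, the values are a description. The fold changes and SEs come from the fit without pairs, although the replicate numbers were taken to pair these libraries (see the processing section). miR-1224 averaged 72.4 ± 6.02 CPM in HR and 44.3 ± 11.8 CPM in LR amygdala (SD, n = 4 each; log2 fold change 0.71, SE 0.28). miR-320-5p averaged 31.8 ± 11.4 CPM in HR and 14.3 ± 4.15 CPM in LR amygdala (1.14, SE 0.38), and miR-484 averaged 42.5 ± 6.33 CPM in HR and 160.2 ± 135 CPM in LR amygdala (-1.92, SE 0.62). The lines did not overlap for these 3 miRNAs, as for 8.76% of all miRNAs tested. miR-320-3p (0.70, SE 0.30) and miR-877 (0.39, SE 0.35) overlapped. The value of miR-484 was -1.10 without LR amygdala replicate 4. The neuronal miRNAs, of which miR-128-3p is the most abundant, summed to 108002 to 132480 CPM in HR and 62720 to 92087 CPM in LR amygdala, also without overlap. The 6 miRNAs of choroid plexus and ciliated cells summed to 12151 to 28655 CPM in HR and 1325 to 20469 CPM in LR amygdala. The part of either list in these values was not tested. Over the whole table edgeR called 0 of 639 miRNAs (0%) in this contrast, while 65 (10.2%) had an unadjusted p under 0.05. DESeq2 called 19 miRNAs here. Fitted on the amygdala libraries alone, 74 of 612 miRNAs had an unadjusted p under 0.05, and with the replicate numbers as a block 130 did, with 0 calls in either fit.

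In dorsal raphe no member passed between the lines, and the background was 0% as well, with 70 miRNAs (11%) at an unadjusted p under 0.05 in edgeR and 0 called by DESeq2. The lines overlapped for all 5 members, while 4.23% of all miRNAs had no overlap. All 5 fitted values were negative, from -0.14 (95% interval -0.77 to 0.49) for miR-320-3p to -1.39 for miR-484, and that of miR-320-3p became 0.11 with library totals and 0.04 without the 2 libraries that lay apart. Relative to the median of all miRNAs miR-320-3p was at -0.08 in the first fit, and at -0.03 and 0.01 in those. The value for miR-320-5p was -0.91 (SE 0.38, adjusted p = 0.370), and -0.28 without LR dorsal raphe replicate 4. miR-1224 had -0.43 (SE 0.28) and miR-877 -0.45 (SE 0.35), which became -0.11 and -0.10 without that replicate. The interaction of line and region again had 0 calls (0%) in edgeR, with 81 miRNAs (12.7%) at an unadjusted p under 0.05, and 22 calls in DESeq2. Among the members it was largest for miR-320-5p (2.05, SE 0.54), and 1.37 without LR dorsal raphe replicate 4. It holds the amygdala contrast on which miR-320-5p was singled out.

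Other miRNAs known to avoid Drosha or Dicer were listed for comparison. The list has 9 rows in the tables, of which 8 were tested and 7 averaged at least 10 CPM. miR-702-3p, from the Plod3 gene and a mirtron in mouse, was the member of the list called between the regions, as lower in amygdala, against 14.9% of all miRNAs called as lower. It stood at 28.2, 27.7, 75.1 and 107 CPM in HR amygdala and 72.7, 67.8, 75.3 and 70.4 CPM in LR amygdala. It stood at 109, 130.1, 181 and 201 CPM in HR dorsal raphe and 242, 199, 153 and 180.2 CPM in LR dorsal raphe, so the regions did not overlap. Its averaged difference was -1.41 on the log2 scale (SE 0.27, adjusted p = 0.000880 in edgeR). miR-664-3p (-0.34), miR-664-1-5p and miR-664-2-5p (-0.27 each), miR-1839-3p (-0.54) and miR-1839-5p (0.02), which in other species derive from small nucleolar RNAs, did not pass, nor did miR-451-5p (0.27), which is known to mature without Dicer. The median over the 8 was -0.27 and over the 5 members -0.37, beside -0.08 over all miRNAs tested.

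The members did not share a common pattern over the 16 libraries. Pearson's r of log2 CPM was 0.76 between miR-1224 and miR-320-3p, 0.72 between miR-320-3p and miR-877 and 0.69 between miR-1224 and miR-877. The arms of miR-320 had an r of 0.10, and miR-484 had an r of -0.28 to -0.40 with the other 4. These values describe libraries that share groups, depth and scaling. Among miRNAs of at least 10 CPM, the patterns most like that of miR-1224 were those of miR-490-3p (r = 0.94), miR-134-5p (0.94) and miR-10b-5p (0.93). For miR-320-3p they were miR-423-5p (0.86), miR-879-5p (0.85) and miR-181b-5p (0.84), and for miR-320-5p miR-370-3p (0.91), miR-1843-5p (0.83) and miR-6325 (0.81). For miR-877 they were miR-873-3p (0.83), miR-873-5p (0.80) and miR-125a-3p (0.79). For miR-484 they were miR-6321 (0.59), miR-138-2-3p (0.51) and miR-138-1-3p (0.51).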

How the data were processed

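Small RNA libraries from dorsal raphe and amygdala were made, per the labels' protocols, from miRNeasy extracts with an Illumina protocol and Pippin size selection. The deposited values are the authors' read counts per mature miRNA. Cutadapt 1.3.1, Bowtie2 and bedtools 2.14.2 are named in the submitters' processing notes. Their settings, the annotation, the build and how reads with several matches were counted are each not given in sources used here.

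Low counts were removed by filterByExpr at 10 counts, with 15 in total. edgeR 4.0.16 in R 4.3.3 scaled the libraries by TMM and fitted 4 group means over the 16 libraries together, with its robust quasi-likelihood test. The Benjamini-Hochberg adjustment ran over 639 miRNAs (threshold 0.05). Log2 CPM used a prior count of 2. DESeq2 1.42.0 and the other alternatives are described in the closing section. Members, lists and tests were chosen with earlier results of these data known. Named were all members, the list of other non-canonical miRNAs at 10 CPM or more, and the 3 miRNAs most correlated with each member.

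The labels number libraries 1 to 4 in each group. Same-numbered HR and LR amygdala libraries deviated together from their group means (r = 0.21 to 0.69 over miRNAs, each above the criterion of 0.1). Of 8 libraries 5 correlated best with their own number. These numbers were therefore taken to pair the libraries. This pairing comes from the data, since no label explains the numbers. The member values given between the lines in amygdala come from the fit without pairs. Each of the other pairs of groups had a correlation at or under that criterion.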

Additional observations from a re-analysis of the deposited data

Results flagged for a closer look

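In 36 sets of 4 libraries (5 levels and 4 ratios in each group), a library was singled out where its gap to the next filled over 0.829 of the group's range. Chance gives this in about 5% of groups, and 5 were found. miR-320-5p stood at 44.9 CPM in LR dorsal raphe replicate 4, far above the others of its group. miR-484 stood at 373 CPM in LR dorsal raphe replicate 2, and its counts there were 71.5% of those of miR-320-3p. In HR dorsal raphe replicate 1 miR-484 stood at 83.2 CPM, and its counts were 22.2% of those of miR-320-3p. The ratios rest on the same miR-484 counts as the levels and are not separate results.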

How the results depend on the processing

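The fall of miR-1224 averaged over the lines kept its direction and its call under DESeq2, RLE size factors, library totals, no filter, the replicate block, the fit without both libraries that lay apart, and without each library in turn (-1.39 to -1.10). miR-320-5p in high responders was likewise called under each of these (1.24 to 1.64 without 1 library). Of the 520 alternative values of the members 489 kept their call or, where not called, moved by less than the SE. Of the rest 21 moved further, 9 came to pass, 1 ceased to pass and 0 called values changed sign. These values include the line difference in amygdala, which is a description only, and the interaction that holds it.

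The number of all miRNAs called moved more. Between the regions in high responders 84 became 136 with DESeq2, 138 without both libraries that lay apart, 123 when fitted on the compared groups alone, 149 with the replicate block on those groups, and 61 to 128 without 1 library, 128 being without HR amygdala replicate 4. In low responders 90 became 109 with DESeq2, 129 without both libraries that lay apart, 64 when fitted on the compared groups alone and 21 with the replicate block on those groups. It became 47 to 84 without 1 library, 47 being without LR amygdala replicate 3. Averaged over the lines 155 became 114 to 218 without 1 library. Between the lines in amygdala 0 became 19 with DESeq2, 2 with library totals and 9 without both libraries that lay apart. The interaction had 0 in the main analysis, 22 with DESeq2, 1 with no filter, 3 without both libraries that lay apart and 0 to 1 without 1 library. The cause was not tested. Calls split into 60 higher and 95 lower averaged over the lines (100 and 103 with DESeq2, 128 and 84 without both libraries that lay apart), 42 and 42 in high responders (40 and 71 with library totals) and 23 and 67 in low responders (40 and 69 with DESeq2, 34 and 54 with library totals, 75 and 54 without both libraries that lay apart, 43 and 41 without LR dorsal raphe replicate 4). Library totals moved the median over all miRNAs by -0.19 between the regions of high responders and by 0.14 between those of low responders.

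With the replicate block miR-1224 in low responders had -1.69 and an adjusted p of 0.0590, and without the block on the same groups -1.71 and 0.00857. The numbers were not taken to pair these groups (r = -0.29 to 0.16, and 0 of 8 libraries correlated best with their own number). The cause of the lost call was not tested. The block changed no other call of a member. miR-877 and miR-320-5p, with 20 to 202 and 35 to 144 counts a library, are the members whose precision depth limits most.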

Other observations

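miR-664-1-5p and miR-664-2-5p had the same count in all 16 libraries, so they are 1 measurement listed under 2 names. Over all 722 miRNAs, 4 had the counts of another in every library. None of the 5 members was among them.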
